A study of Homo sapiens with 2 samples.

Results

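Flag-ETV4 peaks were examined at 8 genes of pericellular proteolysis, the urokinase plasminogen activator PLAU, its receptor PLAUR, the tissue plasminogen activator PLAT, the serpins SERPINE2 and SERPINB5, and the tissue inhibitors of metalloproteinases TIMP1, TIMP2 and TIMP3. The genes were listed by name and function, not by their peaks, although earlier results of these data were known. They were taken from 59679 RefSeq genes, of which 20037 were protein-coding. All peaks whose interval lay within 20 kb of the outer ends of a gene were assigned to it, which gave 39 of the 54389 peaks of the library. The library was a single anti-Flag immunoprecipitate. The cells were A549, derived from a human lung adenocarcinoma, which carried an shRNA against ETV4 and were transfected again with Flag-ETV4. A single input library from the same cells served as its control and enters the values below only through the peak caller's fold enrichment, p-value and q-value and the control level computed from them. The profile is therefore that of tagged, transfected ETV4, and a library from cells without Flag-ETV4 was not analysed here. The sample labels and the methods name different suppliers for the Flag antibody. With no replicate, differences between peaks could not be set against a replicate spread, and the 95% intervals given here are exact Poisson intervals that cover counting error only.

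Plasminogen activators convert plasminogen to plasmin, a broad protease that degrades fibrin and matrix proteins and can activate metalloproteinases. Urokinase does so at the cell surface, where it is held by its receptor, and serpins and TIMPs limit the serine proteases and the metalloproteinases, respectively. ETV4 belongs to the PEA3 group of ETS factors, which bind DNA around a GGAA core. The upstream enhancer of the urokinase gene, in which an ETS site adjoins an AP-1 site, is a textbook example of ETS-dependent protease regulation.

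Within 20 kb, peaks were strongest at the urokinase receptor and most frequent at urokinase, and no peak was listed at SERPINB5 or TIMP3. By overlap with the gene itself, TIMP2 had the most peaks, 4, and PLAU had 2. Of the 8 genes, 6 had at least 1 peak within 20 kb, against 86.1% of all protein-coding genes under the same rule. The same 6 genes had a peak within 1 kb of a gene start, against 62.4% of all protein-coding genes, and 5 had such a peak with a fold enrichment of at least 10, against 45.5%. With 8 genes, these counts lie near the background. For 15842 of the protein-coding genes, including all members but PLAT and TIMP2, RefSeq starts were used. For the others, a peak near either end of the gene was counted. The fold enrichment is the ratio of immunoprecipitate to control at the summit, the base with the highest signal, and fragments at the summit (the pileup) were computed from the deposited fold and p-value.

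The sequences just before the starts of 6 promoters are shown because peaks covered the full 250 bases at the first 4 and none of the bases at the last 2. Capitals mark each GGAA on either strand, which reads TTCC where the core lies on the opposite strand, and each TGANTCA, the AP-1 consensus. Sequences run 5′ to 3′ in the direction of transcription and end at the base before the RefSeq start, on GRCh38.p14. PLAU lies at chr10:73910882-73911131 on the plus strand, PLAUR at chr19:43670170-43670419 on the minus strand, TIMP1 at chrX:47582186-47582435 on the plus strand, SERPINE2 at chr2:224038641-224038890 on the minus strand, SERPINB5 at chr18:63476708-63476957 on the plus strand, and TIMP3 at chr22:32801455-32801704 on the plus strand.
PLAU, second start: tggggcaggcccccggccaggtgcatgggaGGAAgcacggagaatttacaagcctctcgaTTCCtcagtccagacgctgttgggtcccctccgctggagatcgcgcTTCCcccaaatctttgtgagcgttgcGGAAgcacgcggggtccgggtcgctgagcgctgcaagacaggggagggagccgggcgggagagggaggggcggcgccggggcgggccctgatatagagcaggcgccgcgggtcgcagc
PLAUR: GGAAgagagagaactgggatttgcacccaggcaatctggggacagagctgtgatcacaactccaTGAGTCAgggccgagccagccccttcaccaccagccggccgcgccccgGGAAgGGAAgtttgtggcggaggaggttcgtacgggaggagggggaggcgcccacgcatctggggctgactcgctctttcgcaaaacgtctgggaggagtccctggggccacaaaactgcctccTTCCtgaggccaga
TIMP1: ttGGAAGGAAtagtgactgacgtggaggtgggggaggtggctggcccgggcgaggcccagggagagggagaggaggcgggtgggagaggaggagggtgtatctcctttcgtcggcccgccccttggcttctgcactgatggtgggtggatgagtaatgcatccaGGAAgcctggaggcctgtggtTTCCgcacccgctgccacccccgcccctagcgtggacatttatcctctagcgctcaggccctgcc
SERPINE2, second start: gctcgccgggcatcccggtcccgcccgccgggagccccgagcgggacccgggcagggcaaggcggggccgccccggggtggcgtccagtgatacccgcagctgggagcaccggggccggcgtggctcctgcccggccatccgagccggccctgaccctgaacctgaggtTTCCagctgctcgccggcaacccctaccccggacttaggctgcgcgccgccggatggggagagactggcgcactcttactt
SERPINB5: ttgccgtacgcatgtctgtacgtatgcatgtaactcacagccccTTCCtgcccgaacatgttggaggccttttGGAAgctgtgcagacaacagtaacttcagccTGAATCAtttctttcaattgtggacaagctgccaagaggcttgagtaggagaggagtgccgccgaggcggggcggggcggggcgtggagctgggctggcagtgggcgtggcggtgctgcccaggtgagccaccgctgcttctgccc
TIMP3: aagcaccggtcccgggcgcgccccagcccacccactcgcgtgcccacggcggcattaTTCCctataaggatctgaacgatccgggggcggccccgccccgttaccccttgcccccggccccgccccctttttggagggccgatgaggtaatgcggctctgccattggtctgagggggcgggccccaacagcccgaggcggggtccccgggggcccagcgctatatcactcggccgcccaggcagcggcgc

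The promoters of PLAU, PLAUR and TIMP1 each held 4 GGAA cores, that of SERPINB5 held 2, and those of SERPINE2 and TIMP3 held 1. Over 22197 promoters of protein-coding genes, 92.5% held at least 1 GGAA, with a median of 3. The longer match AGGAAG, which contains the core, was found in 28.7% of all promoters. It was present in PLAU, PLAUR and TIMP1, and also in SERPINB5, where no peak was listed. In TIMP1 it lay 87 to 82 bases before the start, and in SERPINB5 207 to 202 bases before the start, there on the opposite strand. CGGAAG, found in 20.2% of all promoters, occurred at PLAU 119 to 114 bases before the second start. It also occurred 71 to 66 bases before the first listed start of SERPINE2, whose 250 bases, like those before the first start of PLAU with 3 GGAA cores, were under no peak. TGANTCA, found in 5.36% of all promoters, occurred at PLAUR 186 to 180 bases before the start and at SERPINB5 146 to 140 bases before the start. No match was thus present in all 4 covered promoters and absent from the 4 uncovered ones. By number of GGAA, PLAU at its second start, PLAUR and TIMP1 held 4, and the uncovered promoters held 1 to 3. The summits of the strongest PLAU and PLAUR peaks lay 129 and 1108 bp inside the gene, outside these 250 bases. Whether the matches bear on the peaks was not tested. SERPINE2 had a covered promoter with a single core and a GC content of 75.2%, and TIMP3 had an uncovered promoter with a single core and a GC content of 72.4%.

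**Figure D1:**
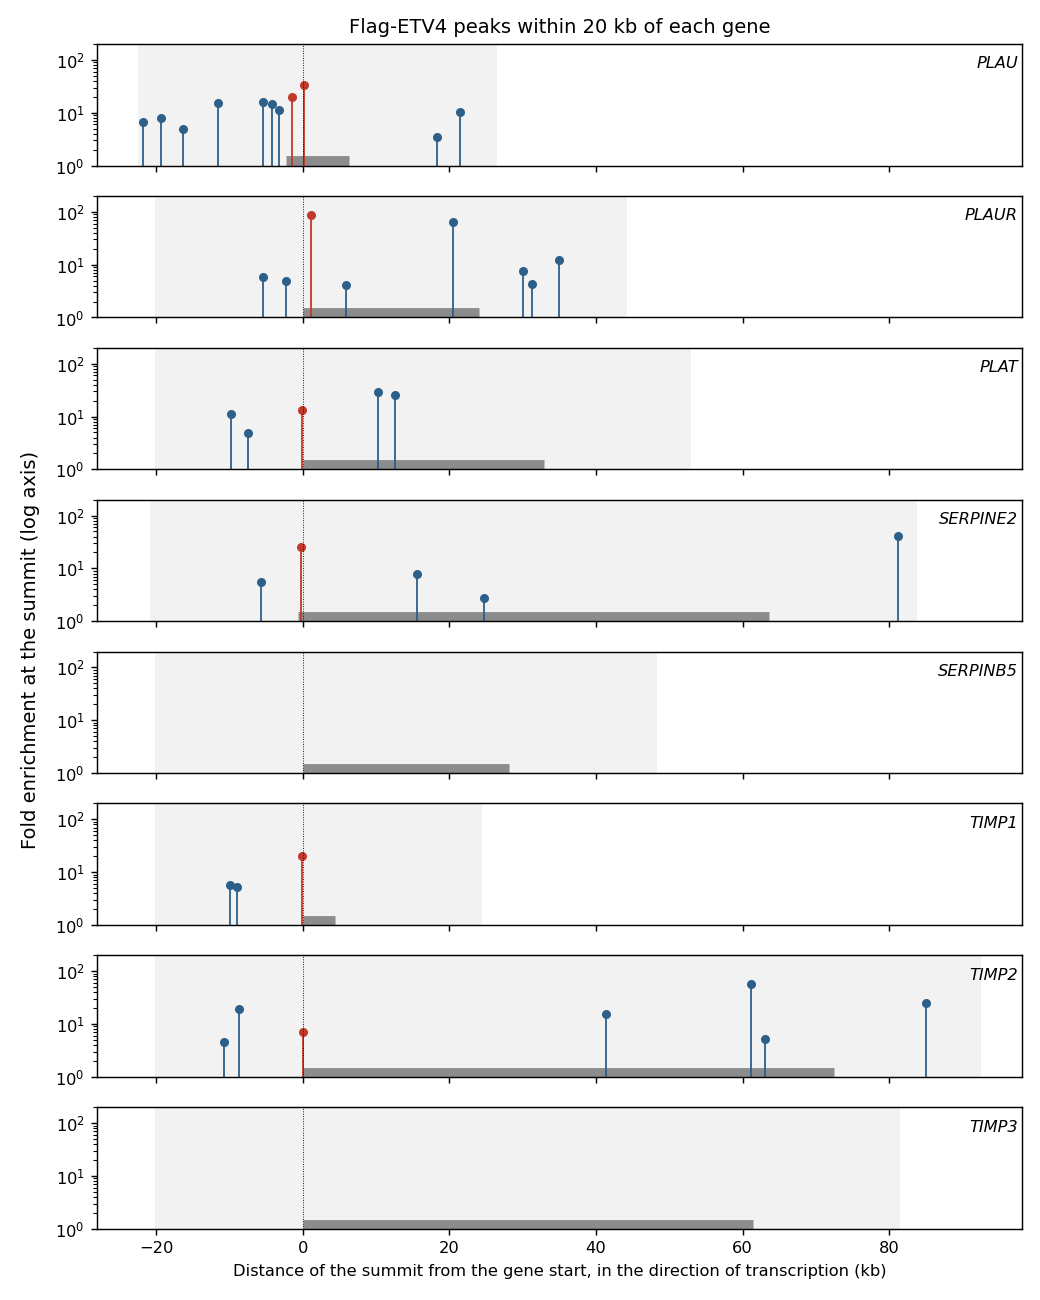
Each panel is a gene and each stem a Flag-ETV4 peak, placed by the distance of its summit from the gene start in kb (the second of the listed starts for PLAU and SERPINE2) and as high as its fold enrichment on a log axis. Red stems are peaks within 1 kb of a gene start, blue stems all others, dark bars the gene and light shading the 20 kb around it. PLAU has 11 stems, of which 2 lie beyond its 3′ end and the others before or at its start, PLAUR has 1 tall stem at each side of its gene body, and the SERPINB5 and TIMP3 panels are empty.

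PLAU, the gene for urokinase, is 8663 bp long on the plus strand of chromosome 10, from 73908832 to 73917494. It had 11 peaks within 20 kb, the most of the 8 genes. Among 5479 protein-coding genes of 0.5 to 2 times its length, the median was 2 peaks, and 0.511% had at least as many as PLAU. The strongest peak, from 73910796 to 73912088, covered the second RefSeq start at 73911132. Its fold enrichment was 33.2, with 96 fragments at the summit (77.8 to 117) over a control level of 1.92. The summit lay 129 bp inside the gene from that start. The first listed start, 522 bp further upstream, was in no peak, although the edge of the same peak was 186 bp away.

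A run of peaks led up to the urokinase start. Counting the start peak, 6 peaks with a fold enrichment of at least 10 lay within 12.9 kb, from 73899166 to 73912088, separated by gaps of 225 to 5536 bp. The nearest one before the start peak, from 73908697 to 73909995, overlapped the outer 5′ end of the gene at 73908832. It extended from 2435 to 1137 bp before the second start, within 1 kb of the first one. Its fold enrichment was 19.7, with 55 fragments (41.4 to 71.6). The next 3, with summits 3201, 4131 and 5383 bp before the second start, had fold enrichments of 11.1, 14.9 and 15.7 and pileups of 40, 64 and 43 fragments. The sixth, with its summit 11523 bp before that start, had a fold enrichment of 15.2 and 50 fragments (37.1 to 65.9). The pileups of these 5 peaks before the second start had overlapping intervals, and their order was not tested. The weaker peaks were 3 farther upstream, with fold enrichments of 4.86 to 8.11, and 2 downstream of the gene, with fold enrichments of 3.47 and 10.2. The lncRNA C10orf55, from 73909969 to 73922777, overlaps PLAU from before its listed starts to its 3′ end, and the summit of the strongest PLAU peak lay inside both genes. The upstream peaks 1 to 3, counted from the outermost, had LOC124902454 as the nearest gene end, and the other 4 upstream peaks had PLAU itself. All remaining peaks, which are those within 1 kb of a start and the 2 downstream, had C10orf55. Its end was 336 bp from the summit of the weaker and 1292 bp from that of the strongest start peak. These start peaks thus cannot be assigned to PLAU alone.

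PLAUR encodes the urokinase receptor, a surface protein anchored by a lipid, and lies on the minus strand of chromosome 19, from 43646095 to 43670169. Its start was covered by the strongest peak of the 39, from 43668693 to 43670895, which was 2203 bp wide. The fold enrichment was 86.3 and the −log10 q 738, with 464 fragments at the summit (423 to 508) over a control level of 4.39. By fold it ranked at percentile 98.5 of the whole list and by pileup at 99.8. Among the 12501 protein-coding genes with a peak within 1 kb of a start, the fold of PLAUR was at percentile 99.2. The summit was not at the start but 1108 bp inside the gene. It lay 297 bp from an end of the lncRNA LOC124904724, which overlaps this end of PLAUR, so the peak cannot be assigned to PLAUR alone.

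A second strong peak lay near the 3′ end of PLAUR. It spanned 43649231 to 43650100, with its summit 20451 bp from the start and 3623 bp from the 3′ end, and had a fold enrichment of 62.9 and 239 fragments (210 to 271). Its pileup interval did not overlap that of the start peak, and both intervals lay above those of all other peaks at the 8 genes. The third PLAUR peak with a fold enrichment of at least 10, from 43635016 to 43635587, had a fold of 12.3 and a summit inside the neighbouring gene CADM4, 249 bp from an end of LOC105372411. The remaining 5 peaks had fold enrichments of 4.11 to 7.47, and 2 of them also had their summits inside CADM4. In all, PLAUR had 8 peaks, a number reached by 4.93% of the 7057 protein-coding genes of 0.5 to 2 times its length.

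PLAT encodes tissue plasminogen activator, the activator of fibrinolysis in blood. It is 32848 bp long on chromosome 8, from 42174718 to 42207565, and had 5 peaks. The peak at the upper end of the gene, which is its 5′ end from general knowledge of its orientation, spanned 42207371 to 42207900. This start peak had a fold enrichment of 13.4 and 44 fragments (32.0 to 59.1), and its summit lay 113 bp before the gene. The higher peaks of PLAT were a pair inside the gene, with summits 10208 and 12639 bp from the 5′ end. Their fold enrichments were 29.1 and 25.1, and their pileups 87 fragments (69.7 to 107) and 75 fragments (59.0 to 94.0), which overlap each other in their intervals. The interval of the former did not overlap that of the start peak. Upstream of PLAT, peaks at 7486 and 9782 bp had fold enrichments of 4.96 and 11.1. No other protein-coding gene held a summit of a PLAT peak.

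SERPINE2, or protease nexin-1, is a secreted serpin that inhibits thrombin, urokinase and tissue plasminogen activator. The gene is on the minus strand of chromosome 2, from 223975045 to 224039286, and had 5 peaks. RefSeq starts are listed at 224031478 and 224038640, which are 7162 bp apart. Only the second, farther upstream one was covered, by a peak from 224038325 to 224039954. This peak had a fold enrichment of 25.8 and 77 fragments (60.8 to 96.2), and its summit lay 191 bp before the start. The nearest peak to the other start was this same one, 6847 bp away. Inside the gene, the peak from 224013756 to 224014079 had the lowest fold enrichment of the 39, 2.7, with a −log10 q of 1.37 and 9 fragments (4.12 to 17.1). The strongest peak in the 20 kb window, with a fold enrichment of 41.3 and 152 fragments (129 to 178), lay 17.0 kb beyond the 3′ end of SERPINE2 and inside MRPL44, a mitochondrial ribosomal protein gene. Its assignment to SERPINE2 rests on distance alone.

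SERPINB5 encodes maspin, a clade B serpin of epithelial cells that is described as a tumour suppressor. The gene is 28128 bp long on chromosome 18, from 63476958 to 63505085, and no peak lay within 20 kb of it. Among the 7096 protein-coding genes of 0.5 to 2 times its length, 10.8% had none either. The nearest peak was 54.1 kb away on the lower side, with a fold enrichment of 6.44, and the next on the upper side was 86.0 kb away. SERPINB5 thus lay in a stretch of 168 kb without a peak. The same stretch held its neighbour SERPINB12. Of the 10 SERPINB genes of this cluster, 5 were overlapped by a peak, against 72.0% of all protein-coding genes. Those without were SERPINB5, SERPINB12, SERPINB4, SERPINB3 and SERPINB2, while SERPINB13, between SERPINB12 and SERPINB4, was overlapped by a peak with a fold enrichment of 99.3.

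TIMP1 encodes a secreted inhibitor of metalloproteinases and is the shortest of the 8 genes, 4354 bp on the plus strand of chromosome X, from 47582436 to 47586789. It lies inside SYN1, the synapsin I gene. Its start was covered by a peak of 559 bp, from 47582032 to 47582590, with a fold enrichment of 20.1 and 45 fragments (32.8 to 60.2). The control level there was 1.28, the lowest value in the list and one shared with other peaks, and the summit was 112 bp before the start. This summit fell within the printed sequence and, like the start itself, within SYN1. The other 2 peaks lay 8950 and 9895 bp before the start, near an end of ARAF, and had fold enrichments of 5.21 and 5.69 with 13 and 12 fragments. Their pileup intervals lay below that of the TIMP1 start peak.

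TIMP2 inhibits metalloproteinases and also takes part in the activation of pro-MMP2 at the cell surface. The gene is 72411 bp long on chromosome 17, from 78852977 to 78925387, and had 7 peaks. The peak at its upper end, the 5′ end from general knowledge, was weak. It spanned 78924743 to 78925745, with a fold enrichment of 6.94 and 15 fragments (8.40 to 24.7), and was the only start peak of the 8 genes with a fold below 10. Among protein-coding genes with a start peak, this fold was at percentile 16.2. Deep inside the gene, 61140 bp from the 5′ end, a peak between 78864020 and 78864687 reached a fold enrichment of 57.2, percentile 95.5 of all peaks, and 156 fragments (132 to 182). The summit of that peak lay inside the lncRNA LOC124904068. Further peaks had fold enrichments of 15.8 inside the gene, 19.6 at 8706 bp before the start, and 24.7 beyond the 3′ end, the last with its summit inside USP36, a deubiquitinase gene. CEP295NL, which lies wholly inside TIMP2, was overlapped by no peak.

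TIMP3, which unlike the other TIMPs is bound to the extracellular matrix, had no peak within 20 kb although its gene is 61337 bp long, on the plus strand of chromosome 22 from 32801705 to 32863041. Of the 6080 protein-coding genes of 0.5 to 2 times its length, 7.89% had none. The result sits at the edge of the rule. The nearest peak (32780673 to 32781256, fold enrichment 24.1) ended 20.4 kb before the gene, and the gene end nearest to its summit was that of TIMP3. In the other direction the next peak was 399 kb away, so that TIMP3 lay at one side of a stretch of 481 kb without a peak. TIMP3 lies inside SYN3, a synapsin gene of 551 kb, which was overlapped by 17 peaks with a highest fold enrichment of 25.5. Within 500 kb of TIMP3 there were 22 peaks with a median control level of 1.28, the lowest value in the whole list. Within 500 kb of SERPINB5 there were 23 with a median of 1.35, against 1.67 over all peaks. The control level at the 2 genes themselves is not in a peak list, and its part in the lack of peaks was not tested. A site weaker than the caller's threshold would also be missing from the list, in which the lowest −log10 q was 1.30 and the lowest pileup 6 fragments.

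**Figure D2:**
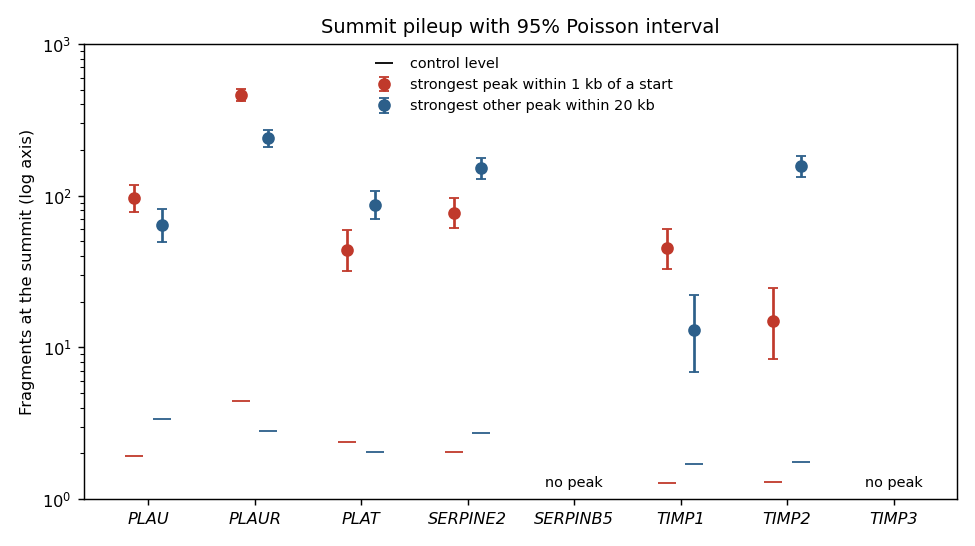
Points give the fragments at the summit on a log axis for the peak with the most fragments within 1 kb of a start (red) and the other peak with the most fragments within 20 kb (blue) of each gene, bars the exact Poisson 95% interval, and short dashes the control level at the same summit. The red point is above the blue one with separate intervals at PLAUR and TIMP1, above it with overlapping intervals at PLAU, and below it with separate intervals at PLAT, SERPINE2 and TIMP2.

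The 6 genes with peaks differed widely at their starts. PLAUR had 464 fragments at its start peak, PLAU 96, SERPINE2 77, TIMP1 45, PLAT 44 and TIMP2 15. The intervals of PLAU and SERPINE2 overlapped, as did those of TIMP1 and PLAT, whereas the interval of PLAUR lay above and that of TIMP2 below all others. By the strongest peak anywhere in the window the order was PLAUR, TIMP2, SERPINE2, PLAU, PLAT and TIMP1, whether ranked by fold, −log10 q or pileup. These measures are not independent of each other. For the strongest peaks, the pileup intervals of TIMP2 and SERPINE2 overlapped, as did those of PLAU and PLAT. Start peaks led the window at PLAUR, PLAU and TIMP1, and peaks away from the start led at PLAT, SERPINE2 and TIMP2. At the median, the 7 peaks at a start reached a fold of 20.1 and 55 fragments, and the 32 others a fold of 7.99 and 29.5 fragments.

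**Figure D3:**
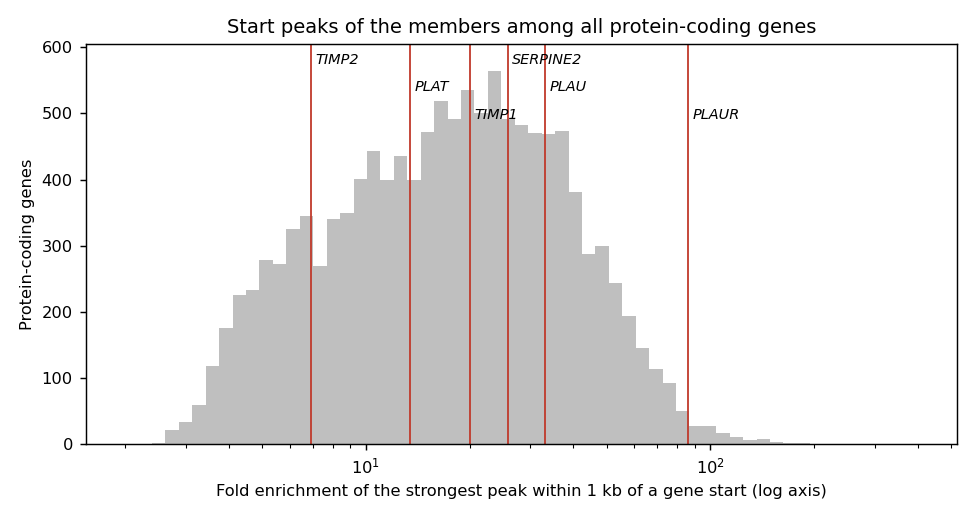
The grey histogram counts protein-coding genes by the fold enrichment of their strongest peak within 1 kb of a start, on a log axis, for the 12501 genes that have one. Red lines mark the 6 members with such a peak, from TIMP2 at 6.94 to PLAUR at 86.3, and the median of all genes is 17.8.

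Over all 39 peaks, the fold enrichment ranged from 2.7 to 86.3 with a median of 11.1, against a median of 9.63 over all 54389 peaks. A fold of at least 10 was reached by 53.8% of the 39 peaks and 48.5% of all peaks. The control level ranged from 1.28 to 5.74 with a median of 2.35, so it was higher at the median than the 1.67 over all peaks, and the part of this in the fold was not tested. Of the 39 peaks, 16 overlapped a member, 16 lay upstream of one and 7 downstream. For 24 of them the nearest gene end belonged to another gene, and 8 had their summit outside the member but inside another protein-coding gene, at CADM4, MRPL44, SYN1 and USP36. Just inside the limit of 20 kb, the farthest peak was 19.1 kb from PLAU with a fold enrichment of 6.69. Just outside it, peaks had a fold of 8.62 at 20.2 kb from PLAU, 24.1 at 20.4 kb from TIMP3, 18.8 at 20.6 kb from TIMP1, 4.10 at 20.7 kb from PLAUR and 4.21 at 21.0 kb from PLAT.

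**Figure D4:**
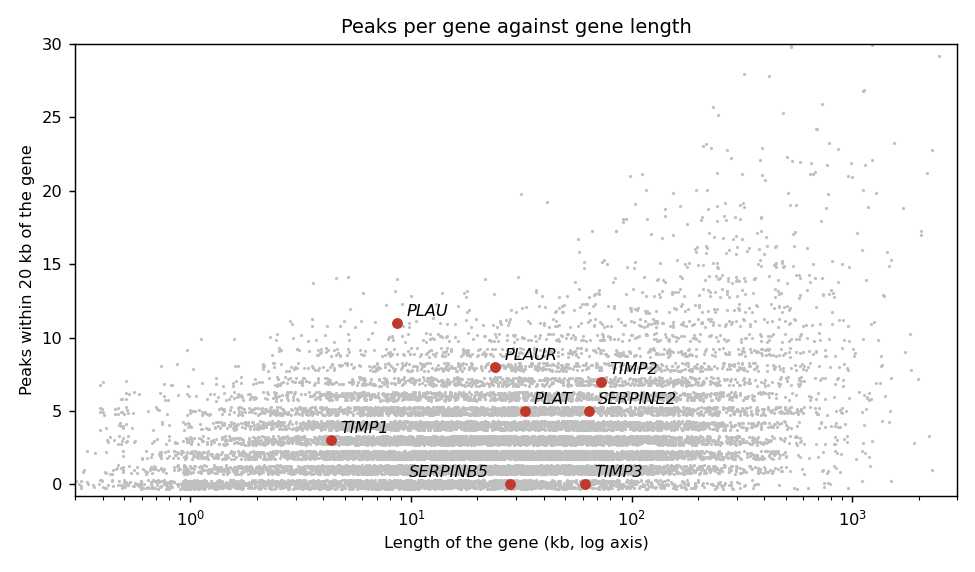
Each grey point is a protein-coding gene, placed by its length in kb on a log axis and its number of peaks within 20 kb, with a small vertical jitter, and 9 genes with more than 30 peaks lie above the plot. Red points are the 8 members. PLAU sits above most genes of its length with 11 peaks, and SERPINB5 and TIMP3 sit at 0.

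The wider pathway was covered by a list of 32 genes, of which 28 had a peak within 20 kb. By the start rule, 17 had a peak within 1 kb of a start, or of either end where RefSeq starts were not listed. A peak near either end need not lie at the start, and among the 25 genes with listed starts 12 had a peak. No share over all protein-coding genes was computed for listed starts alone, so the counts among listed starts have no matching background here. At 12 of the 32 genes, a peak counted by the start rule had a fold enrichment of at least 10. The shares of all protein-coding genes under the same rules, given above, were 86.1% within 20 kb and 62.4% by the start rule. The share with a peak by the start rule at a fold of at least 10 was 45.5%. Of 10 genes listed for the plasminogen cascade, 5 had a peak by the start rule, 4 of them among the 9 with listed starts. The highest was at S100A10, which with annexin A2 forms a plasminogen receptor, with a fold enrichment of 27.9. Next was MRC2, a collagen uptake receptor that associates with PLAUR, with 18.1 and no listed start. PLG, the plasminogen gene itself, had no peak within 20 kb, the nearest being 161 kb away. Of 5 serpins that act on plasminogen activators or plasmin, 3 had a peak by the start rule, 1 of them among the 3 with listed starts. This one, at SERPINI1, was the highest with 46.8. Of 6 other protease inhibitors, only TFPI2, with a fold of 16.3, and RECK, a membrane inhibitor of metalloproteinases, with 15.0, had such a peak. Of 11 further clade B serpins, 7 had a peak by the start rule, 5 of them among the 9 with listed starts. The highest were at SERPINB8 with 41.9 and at SERPINB9, the granzyme B inhibitor, with 25.8. SERPINB3, SERPINB4 and SERPINB12 had no peak within 20 kb. For SERPINB3 and SERPINB12 this is at the edge of the rule, with strong peaks 20.7 kb (fold 58.6) and 21.7 kb (fold 99.3) away. At SERPINB4 the nearest peak was 38.3 kb away.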

How the data were processed

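The experiment comprised 1 anti-Flag immunoprecipitate and 1 input of A549-shETV4 cells re-expressing Flag-ETV4. The submitters' processing notes list Bowtie2 2.4.1, SAMtools, MACS2 2.2.7.1 and deepTools 3.5.0 on hg38, without roles or parameters. The handling of duplicate reads is not given in the sources used here. The authors deposited a narrowPeak list with the fold enrichment as a ratio and the −log10 p and −log10 q at the summit. The deposited display score was not used. Positions are 1-based. Gene ends, starts and promoter sequences came from RefSeq (GRCh38.p14), and starts matched 6 of 8 members. The strand of PLAT and TIMP2 was taken from general knowledge, and exons were not used.

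The pileup and control level were solved from fold, taken as pileup plus 1 over control plus 1, and the Poisson p-value. All pileups fell within 0.01 of a whole number. The functions were tested on simulated data. No test between groups was possible, and fragment totals are not known here. The genes and lists were chosen with earlier results of these data known. Named genes were the members, genes overlapping them or whose end was nearest to a summit, and in each list the 2 highest start peaks and genes without a peak within 20 kb. The values of 1 further gene that this rule names are not reported here. USP36, SERPINB13 and SERPINB2 were added after their values were seen. Alternatives were other windows, thresholds, summits and rankings. Calculations used scipy 1.17.1, pandas 2.3.3 and numpy 2.4.6 under Python 3.11.15, and plots matplotlib 3.10.9.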

Additional observations from a re-analysis of the deposited data

How the results depend on the processing

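Of 30 alternatives, 26 left the counts within 1.5 times those reported. The 4 others concerned the number of peaks at the 8 genes, 39 as reported. It was 16 with overlap of the gene required, 21 within 5 kb, 60 within 50 kb, and 21 with a fold enrichment of at least 10. The count of members with a peak within 20 kb was 6 in each alternative except 50 kb, where it was 7, because TIMP3 gained the peak at 20.4 kb. The count of members with a start peak was 5 with a fold or a −log10 q of at least 10, which removed the TIMP2 peak, and 5 with summits in place of intervals, since the PLAUR summit is 1108 bp from the start. The count of 17 genes of the wider list ranged from 12 to 23, and the order of the members by strongest peak was the same by −log10 q and pileup. The pileup was solved from the fold and p-value, so these rankings are not independent of each other. No paired analysis was possible because there was 1 library of each kind. Pileups near 10 fragments leave wide intervals, so weak peaks are not ranked among themselves.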
